A study of Homo sapiens with 2 samples.

Results

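The genes described here are 9 genes of hyaluronan metabolism, chosen by name: the hyaluronan synthases HAS1, HAS2 and HAS3, the breakdown genes HYAL1, HYAL2, HYAL3 and CEMIP, and the hyaluronan-binding genes CD44 and TNFAIP6. All 9 could be named on the array, out of 21743 genes named in all, and they were covered by 15 probes. Expression was compared between MRC-5 cells, cultured human fetal lung fibroblasts, transfected with siRNA against periostin (10 nM, 48 h), called silenced cells here, and MRC-5 cells transfected with control siRNA, called control cells. The siRNAs were of the ON-TARGETplus type, and the dose and time were stated for the periostin siRNA only. Each condition was measured on 1 single-color array, so no spread between cultures could be measured and no test between the conditions was possible. The comparison asked which genes depend on periostin, a matricellular protein of the fibrotic lung, in lung fibroblasts.

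Hyaluronan is a long, unsulfated sugar polymer of the extracellular matrix. The HAS enzymes build it at the plasma membrane from the nucleotide sugars UDP-glucuronic acid and UDP-N-acetylglucosamine, and hyaluronidases cut it. Cells bind it mainly through CD44, and secreted proteins such as TSG-6, the product of TNFAIP6, remodel and crosslink it. In fibrotic lung, hyaluronan accumulates, and fibroblasts are among its main producers.

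The member that the result turns on is TNFAIP6, and in the wider pathway the gene with the lowest ratio was HMMR, which encodes another hyaluronan-binding protein. The 250 bases before the RefSeq start of each gene (GRCh38.p14, plus strand in both) are shown so that the sequence context of these 2 genes can be read beside their values. Capitals mark letters that matched a searched motif on either strand.
TNFAIP6, chr2:151357342-151357591: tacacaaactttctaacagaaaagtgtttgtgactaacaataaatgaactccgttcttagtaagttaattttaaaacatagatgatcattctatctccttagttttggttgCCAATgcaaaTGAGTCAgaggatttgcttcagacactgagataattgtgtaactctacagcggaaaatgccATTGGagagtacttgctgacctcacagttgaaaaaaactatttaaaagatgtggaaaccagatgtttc
HMMR, chr5:163460382-163460631: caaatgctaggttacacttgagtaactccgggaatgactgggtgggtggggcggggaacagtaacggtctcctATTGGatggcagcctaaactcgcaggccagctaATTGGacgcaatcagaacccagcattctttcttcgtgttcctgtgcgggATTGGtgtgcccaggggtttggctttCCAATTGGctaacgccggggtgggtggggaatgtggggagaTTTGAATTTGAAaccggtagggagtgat
The window of TNFAIP6 held 1 match to TGANTCA, the letters of an AP-1 site, which were present in 6.57% of 35093 promoter windows of this length. It held 2 matches to CCAAT, present in 32.0% of the windows. The window of HMMR held 5 matches to CCAAT, a pair of which overlap, and 2 to TTTGAA, the letters of the cell cycle genes homology region of promoters active in G2 and M phase, present in 13.3%. Neither window held the exact letters TATAAA of a TATA box, which 10.7% of all windows held. Variants of these letters were not searched, so a TATA box with other letters may be present. Neither held the C/EBP letters TTNNGCAA, found in 9.05% of the windows. The searched NF-kB and interferon response element letters, found in 1.40% and 3.02% of the windows, were absent from both as well. All letters were searched on both strands. These are matches of letters, and no binding was measured.

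Signals are given as the background-subtracted scanner intensity of a probe after both arrays were scaled to a common 75th percentile of 377 intensity units, and ratios as log2 of silenced over control cells. Of the 15 probes, 13 were well above background on both arrays, including at least 1 probe for each of the 9 genes. The error after ± is the error that the scanner software propagates for a single spot. Where a probe was printed 10 times, it is the SD over single spots, and the error of their mean is smaller. Neither covers the difference between cultures. For bright spots the propagated error was about 0.20. Among probes printed 10 times with a mean signal of 421 or more, the measured SD between spots was smaller, at 0.05 to 0.07. POSTN, the target of the siRNA, had a signal of 2638 in control cells and 279.75 in silenced cells, a log2 ratio of -3.24 ± 0.20.

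Of the 9 genes, 1 was lower by more than 3-fold, and this was TNFAIP6. For comparison, 2.75% of the 16052 genes with a ratio were lower by more than 3-fold. No member was higher by more than 3-fold, whereas 3.37% of all genes were. The median log2 ratio of the members was 0.06, as was that of all genes, and 4 of the 9 lay below 0 compared with 45.5% of all genes. At a 2-fold limit TNFAIP6 was still the only member past it in either direction by its brightest probe, beside 6.42% of all genes lower and 7.97% higher.

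**Figure D1:**
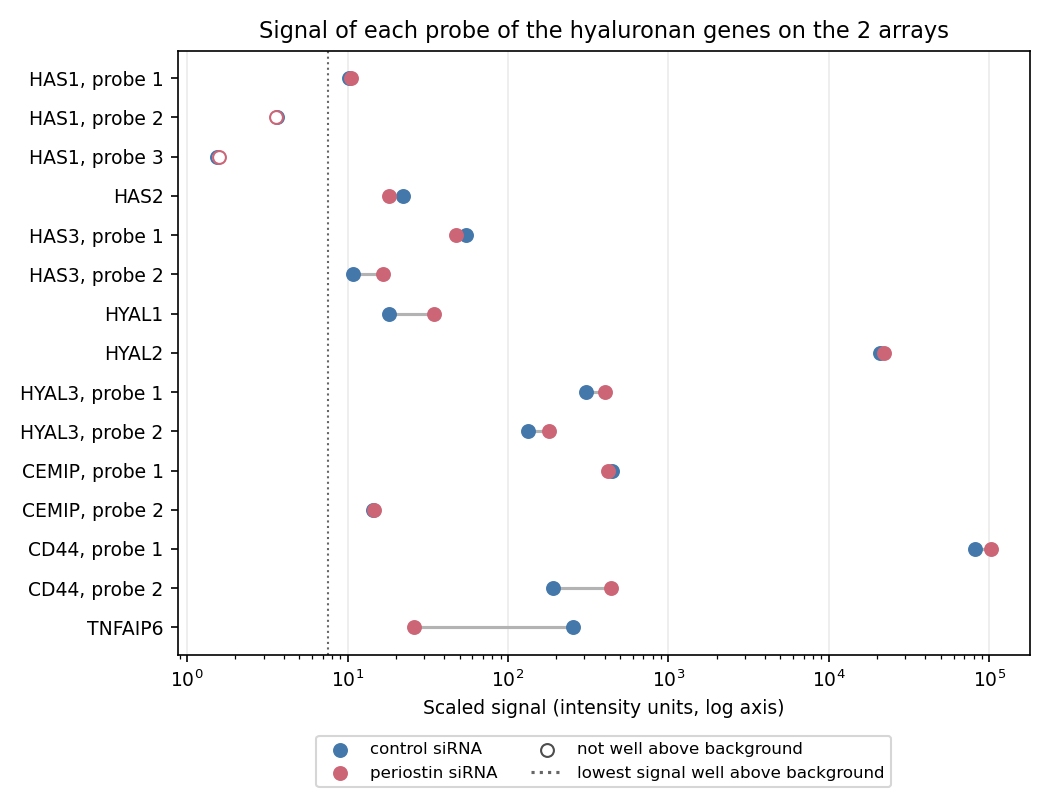
Scaled signal (intensity units, log axis) of each of the 15 probes on the control siRNA array (blue) and the periostin siRNA array (red), with open symbols for probes not well above background and a dotted line at 7.55, the dimmest signal called well above background on the control siRNA array. TNFAIP6 fell from 253 to 26.0, while the points of most other probes lie close together.

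TNFAIP6 encodes TSG-6, a secreted protein induced by TNF and IL-1 that binds hyaluronan through its link module and transfers heavy chains of inter-α-inhibitor onto it. Its probe gave a signal of 253 in control cells and 26.0 in silenced cells. The gene was thus 9.73-fold lower after periostin silencing, with a log2 ratio of -3.28 ± 0.23. Only 67 of the 16052 genes had a lower ratio. The spot carried no outlier flag on either array and was well above background on both, but TNFAIP6 rests on this 1 spot. The signal in silenced cells lay among the dim signals, where the ratio depends on the background correction, and under the normexp correction, which adds an offset to both arrays, the log2 ratio was -1.97. In RNA of a whole culture, fewer cells expressing a gene and less RNA of it per cell cannot be told apart.

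CD44, the main cell surface receptor for hyaluronan, was covered by 2 probes designed on different RefSeq transcripts, and these differed. The brighter probe (A_33_P3294509) gave 81912 in control cells and 102816 in silenced cells, a log2 ratio of 0.33 ± 0.20. The other probe (A_21_P0000152) gave 189.9 and 436, a log2 ratio of 1.20 ± 0.20, which is 2.30-fold higher. The ratios of the 2 probes differed by 0.87, with a combined spot error of 0.29. Both probes were thus higher in silenced cells, and the dimmer probe stayed between 0.97 and 1.24 under all settings tried for it. Which transcripts each probe detects was not tested.

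The synthases were dim on both arrays. HAS2, the synthase best known from fibroblasts, was the only member printed 10 times. In control cells its spots lay between 16.0 and 25.9 with a mean of 22.2, and in silenced cells between 15.7 and 20.8 with a mean of 18.1, so that the spots of the arrays overlapped. The log2 ratio was -0.29 ± 0.27 (SD over 10 spots), and 8 of the 10 spots had a ratio below 0. HAS2-AS1, the antisense RNA of the HAS2 locus, gave 10.5 and 8.56, a log2 ratio of -0.29.

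HAS1 was close to background. Of its 3 probes 2 were not well above background on either array, and the third (A_33_P3295203) gave 10.2 in control cells and 10.6 in silenced cells, a log2 ratio of 0.06 ± 0.41, whose sign changed under 4 of the 10 alternative settings. For HAS3 the probes pointed in opposite directions. The brighter probe gave 54.8 and 47.6, a log2 ratio of -0.20 ± 0.22, and the dimmer one 10.8 and 16.7, a log2 ratio of 0.62 ± 0.34. Their difference was 0.82 with a combined spot error of 0.41, and the sign of the HAS3 ratio turned when both probes were averaged, to 0.21. A change of HAS1 or HAS3 no larger than the spot error was not detectable at these signals. For HAS2 the SD is that of single spots. The error of its mean over 10 spots is smaller and was not computed.

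HYAL1, HYAL2 and HYAL3 lie near each other on chromosome 3, with HYAL1 next to HYAL2 and 1 other protein-coding gene between HYAL3 and HYAL1. By their brightest probes their log2 ratios were 0.93, 0.09 and 0.40, and 0.24, 0.11 and 0.39 under the normexp correction. HYAL2, a hyaluronidase anchored at the cell surface, gave 20859.5 in control cells and 22127 in silenced cells, a log2 ratio of 0.09 ± 0.20 that changed sign under scaling on the median. HYAL1, the lysosomal hyaluronidase, gave 18.1 and 34.5, a log2 ratio of 0.93 ± 0.26, or 1.91-fold higher. Among probes printed 10 times with a mean signal between 13.5 and 136, the SD of this ratio between spots was 0.24. The difference in HYAL1 was thus larger than the noise of such spots, although it came to 0.24 under the normexp correction. HYAL3, a related gene with little known enzyme activity of its own, was higher by both of its probes. The brighter probe gave 307 and 405, a log2 ratio of 0.40 ± 0.20, and the other 133 and 179.9, a log2 ratio of 0.44 ± 0.21.

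CEMIP encodes a hyaluronan-binding protein that fibroblasts need to break down hyaluronan independently of the HYAL enzymes. Its brighter probe gave 443 in control cells and 422 in silenced cells, a log2 ratio of -0.07 ± 0.20. The other probe was dim, at 14.5 and 14.6, with a log2 ratio of 0.02 ± 0.30. For both CEMIP probes the difference between the arrays was smaller than the propagated error. At the signal of the brighter probe the SD between spots was 0.07.

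**Figure D2:**
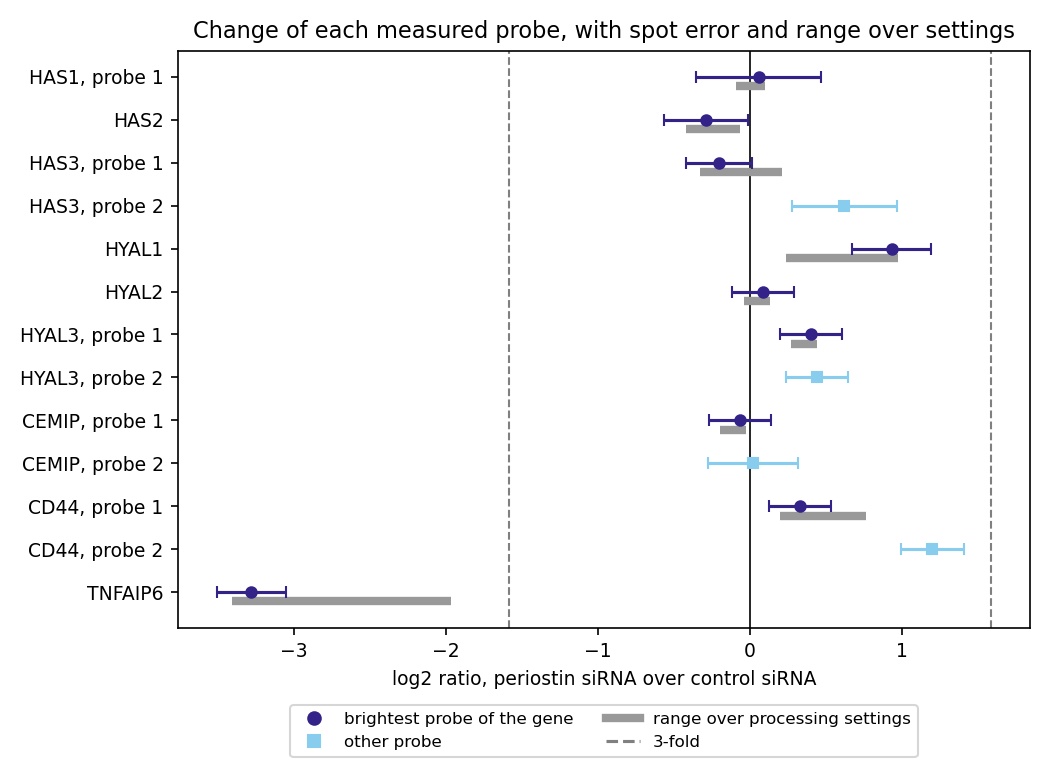
log2 ratio of silenced to control cells for the 13 probes well above background on both arrays, with bars for the spot error (propagated error of 1 spot, or SD over 10 spots for HAS2), grey bands for the range of each gene's ratio over all processing settings and dashed lines at 3-fold. TNFAIP6 at -3.28 is the only point past 3-fold, and its band ends at -1.97, while the bands of HAS1, HAS3 and HYAL2 cross 0.

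**Figure D3:**
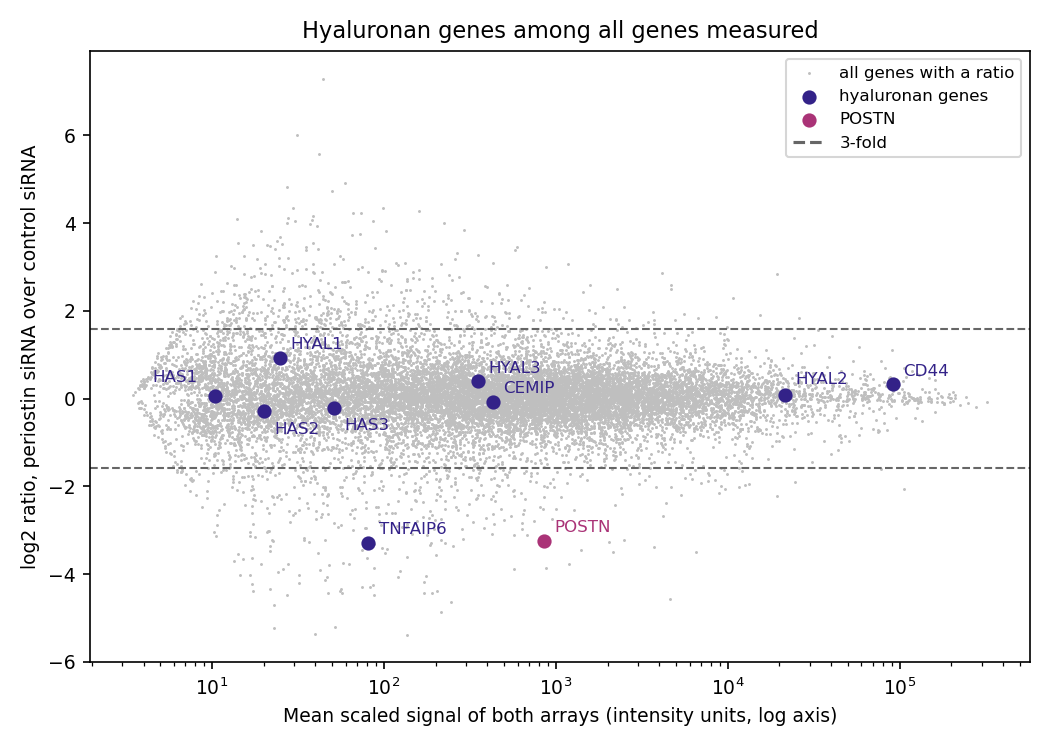
log2 ratio of silenced to control cells against the mean scaled signal of both arrays (log axis) for the 16052 genes with a ratio (grey), the 9 hyaluronan genes (blue) and POSTN (purple), with dashed lines at 3-fold. TNFAIP6 lies at a height similar to POSTN, at -3.28 and -3.24, and the other 8 members lie between -0.29 and 0.93.

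A further 45 genes of the hyaluronan pathway were listed in 7 groups. Of these, 34 had a ratio, and 11 were below background on both arrays. For 4 of the 34, STAB1, ITIH1, ITIH3 and AMBP, the probe was well above background in silenced cells only. Their ratios are given as bounds and could only come out as higher. Among the 34, 3 were lower and 3 higher by more than 3-fold, beside 2.75% and 3.37% of all genes. The median log2 ratio was -0.16, or -0.25 over the 30 genes measured on both arrays, compared with 0.06 for all genes. The lower genes were HMMR, HAPLN1 and GFPT2, and the higher ones ITIH4, ITIH3 and AMBP, of which only ITIH4 was well above background on both arrays.

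The enzymes that make the 2 nucleotide sugars lay below 0 in all 7 cases, compared with 45.5% of all genes, with a median log2 ratio of -0.55. UGP2 was so close to 0 that its sign depends on the scaling. GFPT2, an isoform of the rate-limiting enzyme of the hexosamine pathway, gave 577 in control cells and 168 in silenced cells, a log2 ratio of -1.78 ± 0.20, or 3.43-fold lower. Under the normexp correction it came to -1.43, which is short of 3-fold. UAP1, which forms UDP-N-acetylglucosamine in the last step of that pathway, gave 543 and 204, a log2 ratio of -1.41 ± 0.20. The other hexosamine enzymes were lower by less, namely GNPNAT1 at -0.58, GFPT1 at -0.55 and PGM3 at -0.26, with spot errors of 0.20 each. On the UDP-glucuronic acid side, UGDH gave -0.29 and UGP2 gave -0.0012.

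The remaining genes listed under breakdown lay above 0 by their brightest probe in all 4 cases with a ratio. None passed 2-fold, beside 6.42% of all genes lower and 7.97% higher. Of all 16052 genes with a ratio, 8745 lay above 0. HEXA, which encodes a lysosomal hexosaminidase chain, gave 4823 in control cells and 7329 in silenced cells, a log2 ratio of 0.60 ± 0.20. GUSB, the lysosomal β-glucuronidase, gave 0.30 ± 0.04 (SD over 10 spots) and CEMIP2, a hyaluronan-degrading membrane protein, 0.21 ± 0.20 by its brighter probe. The dimmer CEMIP2 probe had a signal of 30.6 on both arrays and gave -0.0012. HYAL4 gave 0.51 by a probe at 1465 and 2083, while its second probe was not well above background on either array. Whether the HYAL4 product cuts hyaluronan was not tested. SPAM1, the sperm hyaluronidase, was below background on both arrays.

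Among the binding proteins, HMMR, also known as RHAMM and as a protein of the mitotic spindle, gave 789.8 in control cells and 37.0 in silenced cells. It was 21.4-fold lower, with a log2 ratio of -4.42 ± 0.21, and only 13 of the 16052 genes had a lower ratio. Under the normexp correction it came to -3.12. LAYN, the receptor layilin, gave -0.60. HAPLN1, a link protein that fixes proteoglycans to hyaluronan, gave 539 and 94.6, a log2 ratio of -2.51 ± 0.21. The large proteoglycan VCAN, versican, which lies next to HAPLN1 on chromosome 5, gave 1922 and 1028, a log2 ratio of -0.90 ± 0.20. HAPLN3 was on the other side of 0, at 0.88 ± 0.20. The brightest of the listed proteoglycan and link protein genes, HAPLN2, a link protein known from the brain, gave 5005 and 5409. Its log2 ratio was 0.11 ± 0.20, within the propagated error but above the SD of 0.05 between spots at like signal. The receptors LYVE1 and STAB2, which mark lymphatic and sinusoidal endothelium, were below background on both arrays, and STAB1 was at least 1.22-fold higher. The STAB1 signal in silenced cells was 9.24, close to the minimum of 7.77 there, and its spot error was 1.48.

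The genes of the inter-α-inhibitor family, some of whose products TSG-6 transfers onto hyaluronan, were dim or below background in control cells. ITIH4, the only listed one well above background on both arrays, gave 38.6 in control cells and 193 in silenced cells, a log2 ratio of 2.32 ± 0.22. ITIH3 was 3.56-fold higher, from a signal of 7.61 not well above background to 27.1, with a spot error of 0.40. As 7.61 lay above the minimum signal of 7.55, this is the ratio of the spots and no true lower bound. ITIH1, the neighbour of ITIH3, was at least 1.82-fold higher, with a spot error of 0.50. AMBP, which encodes the bikunin light chain, was at least 3.33-fold higher, with a spot error of 0.42. These bounds allow for neither the spot error nor the background correction. The normexp correction lowered these ratios, and with it ITIH4 gave 1.30, ITIH3 0.42 and AMBP 0.33, so that none of the 3 passed 3-fold. PTX3, a pentraxin that joins this complex, was bright, at 10989 and 7610, with a log2 ratio of -0.53 ± 0.06 (SD over 10 spots). HABP2, ITIH2 and ITIH5 were below background on both arrays.

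Of the 8 genes for proteins that work with CD44, none passed 2-fold, beside 6.42% of all genes lower and 7.97% higher. Moesin (MSN), which links CD44 to the actin cytoskeleton, gave -0.10, ezrin (EZR) 0.09 and radixin (RDX) 0.17, each within its propagated error. The SD between spots at like signal was smaller, at 0.05 for MSN, 0.06 for EZR and 0.07 for RDX. A dim second RDX probe gave 0.64 ± 0.27. MMP14, a membrane protease that sheds CD44, gave -0.66 ± 0.20, and NF2, which encodes merlin, -0.58 ± 0.20.

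**Figure D4:**
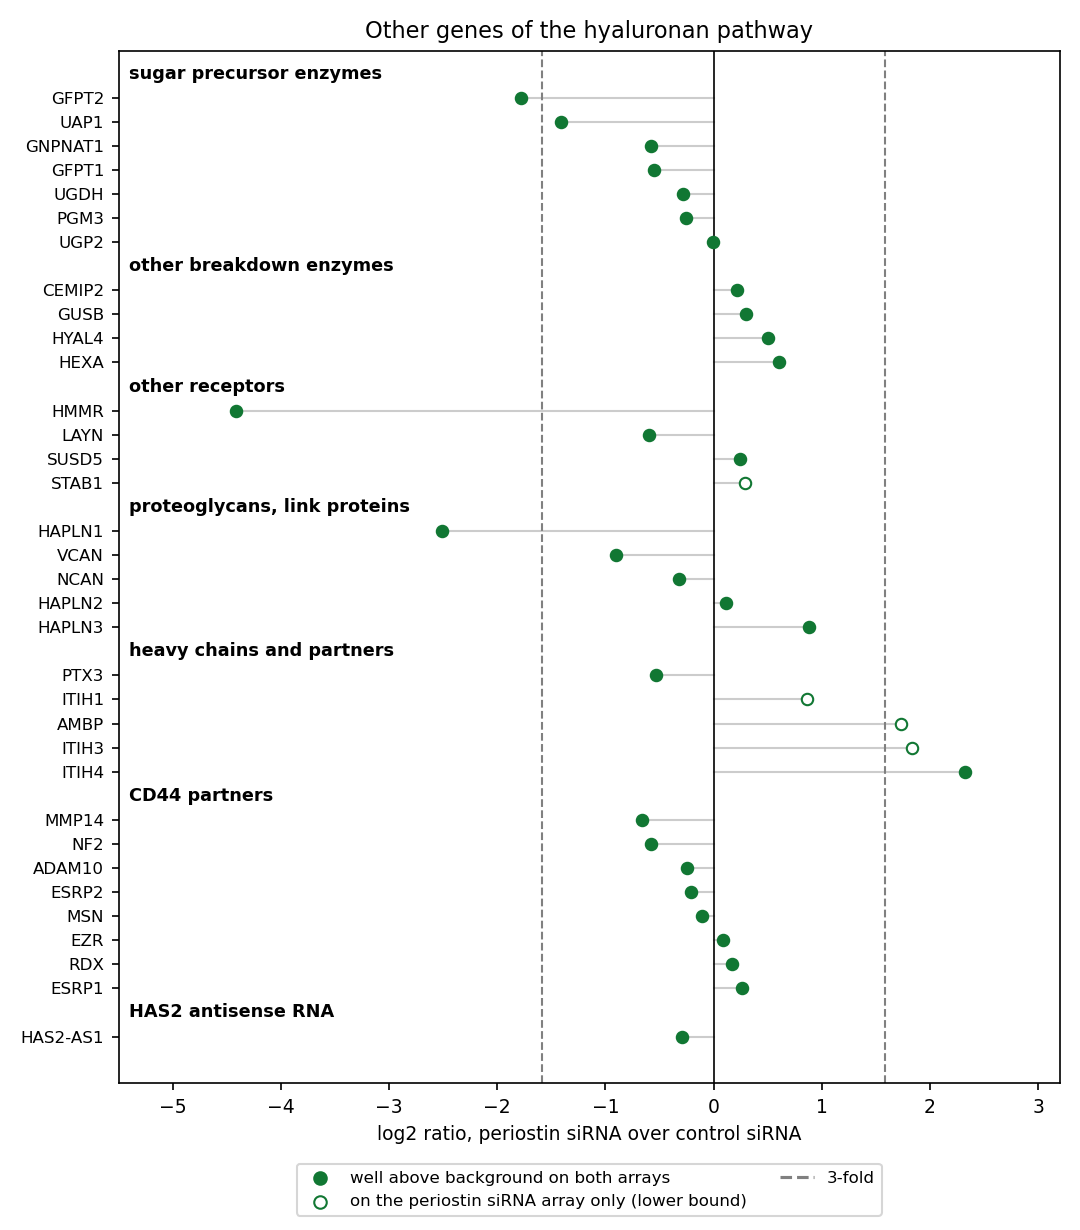
log2 ratio of silenced to control cells for the 34 other hyaluronan pathway genes with a ratio, by group, with dashed lines at 3-fold. Open symbols are genes well above background on the periostin siRNA array only, drawn as lower bounds, although that of ITIH3 is not a true one. The 7 sugar precursor enzymes all lie at or below 0 (UGP2 with a sign that depends on the scaling) and the 4 breakdown genes above it, beside 45.5% of all genes below 0. HMMR at -4.42 and HAPLN1 at -2.51 have the lowest ratios.

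The fibroblast label was checked against its markers. All 8 of COL1A1, COL1A2, COL3A1, VIM, PDGFRB, THY1, DCN and LUM were well above background on both arrays, and their summed signal was 351191 in control cells and 316250 in silenced cells. Of 6 epithelial markers 5 were measured, all above 0, with a median log2 ratio of 0.77 and summed signals of 4037 and 6078, and CDH1 was below background on both arrays. KRT8 was among these 5, at 0.77 by its brightest probe and 0.08 by another. The summed signal of 5 endothelial markers was 167 and 159.6, that of 6 leukocyte markers 314 and 595, and that of 4 mesothelial markers 145 and 412. Most of the difference in the leukocyte sum came from CD14, at 287 and 549, and in the mesothelial sum from CALB2, at 80.7 and 346, while UPK3B gave 59.5 and 62.0. Among the epithelial markers EPCAM had the highest log2 ratio, 1.97, from 34.6 to 135. PECAM1, LAPTM5, HLA-DRA, MS4A1, MSLN and WT1 were below background on both arrays. The part of these markers in the values of the hyaluronan genes was not tested.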

How the data were processed

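The authors hybridized Cy3-labeled RNA to 1 Agilent SurePrint G3 Human 8x60K v2 array per condition and deposited the intensity values of both scanner files, background-subtracted and detrended within each array. The file headers name Feature Extraction 11.5.1.1 and the submitters' processing notes 12.0.3.1. A deposited table of normalized intensity equalled the scanner intensity times 1 factor per array for 100% of 49697 probes printed once (tolerance 0.001). Its method is not given in the sources used here. Its all-gene median log2 ratio was shifted by -0.0004 from that of the scaling described below. As an alternative setting it thus nearly repeats that scaling.

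Each array was scaled on the 75th percentile of its 58717 non-control spots, and log2 values were compared. Spots of a probe were averaged, and the brightest probe stood for a gene. A ratio with only 1 array well above background was a bound ("at least"), for which the dim side took its own value or, if larger, the minimum scaled signal called well above background there (7.55 for the control and 7.77 for the periostin siRNA). Where the dim side took its own value, as for ITIH3, the ratio is not a true lower bound. Genes below background on both arrays got no ratio. Genes were named through the RefSeq accessions of GRCh38.p14, which matched 65.1% of the spots; the array design uses hg19, so no gene coordinates are given beyond those of the printed promoters. Named genes are all members, POSTN, pathway genes past 2-fold, the brightest gene of each pathway group, others of groups with 8 or fewer genes, and cell type markers. A gene of the pathway list is not reported here and was left out of its counts. Members and lists were chosen with earlier results of these data known.

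Precision is limited by the number of arrays, 1 per condition, and nothing was tested for significance. Python 3.11.15 (numpy 2.4.6, pandas 2.3.3) and R 4.3.3 with limma 3.58.1 were used, and the steps were tested on simulated data. Alternatives were the normexp correction (offset 50, applied to median pixel values), no scaling, scaling on the median or on spots well above background on both arrays, quantile and loess (span 0.3) normalization, the deposited table, the mean over probes, only probes well above background on both arrays, flagged spots left out, and 2-fold and 4-fold limits.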

Additional observations from a re-analysis of the deposited data

How the results depend on the processing

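No paired analysis was possible because there is only 1 array for each condition, which also leaves no replicate to leave out. TNFAIP6 was the only member past the fold limit under each of the 12 alternatives, with a log2 ratio between -3.41 and -1.97, and none was higher. Several alternatives could not have dropped TNFAIP6. It has 1 probe with 1 unflagged spot, so leaving out flagged spots or dim probes and averaging probes returned -3.28. A gene past 3-fold is also past 2-fold. Of 90 values of the 9 members under 10 alternatives, 86 moved by less than the error after ±. The exceptions were TNFAIP6 and HYAL1 under the normexp correction, at -1.97 and 0.24, and HAS3 and CD44 as the mean over their probes, at 0.21 and 0.76. Many of the 86 could not have moved further. Leaving out flagged spots or dim probes returned the reported value for every member. The other scalings and the deposited table shift all ratios alike, by no more than the -0.13 of median scaling. That is below the error after ± of every member. The signs of HAS1, HAS3 and HYAL2 depended on the setting. The other pathway genes changed more. The number higher by more than 3-fold was 0 under the normexp correction and 1 with only probes well above background on both arrays. At a 4-fold limit, 1 was past it. The share of all genes past the limit was not counted under these settings, so the lower counts cannot be read as particular to these genes. The median log2 ratio of the pathway genes was -0.29 under scaling on the median and -0.25 with only probes well above background on both arrays. Under the normexp correction it was -0.06, against -0.16 as reported. With scaling on the median, the all-gene median moved by -0.13. The settings for single pathway genes and for the dimmer probes of members were chosen after seeing the data. Signal over background limits HAS1, HAS2, HYAL1 and the heavy chain genes.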

Other observations

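The sugar nucleotides used for hyaluronan also feed other polymers. A list of 10 genes of these polymers was written after the values above had been seen, so it supports nothing and is given as values. All 10 were well above background on both arrays, with a median log2 ratio of silenced to control cells of 0.23, compared with 0.06 for all genes. Of the 10, 1 was lower by more than 3-fold, beside 2.75% of all genes, and none was higher by as much. This was CHSY3, a chondroitin synthase, at 57.7 in control cells and 12.7 in silenced cells, a log2 ratio of -2.18. CHSY1, the related synthase, gave 5549 and 3486, a log2 ratio of -0.67. CHPF, the chondroitin polymerizing factor, gave 0.54, and CHPF2 gave -0.14. The heparan sulfate polymerases EXT1 and EXT2 gave 0.43 each, whereas the related EXTL2 gave 0.17 and EXTL3 gave -0.24. OGT and OGA, which add N-acetylglucosamine to intracellular proteins and remove it, gave 0.39 and 0.29.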
